A study of Homo sapiens with 9 samples.

Results

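The genes described here encode the translation initiation and elongation factors, the proteins that bring ribosome, initiator tRNA and mRNA together and then move the ribosome along the message. They were taken from the count table by symbol, as every protein-coding entry whose name starts with EIF1 to EIF6 or with EEF1 or EEF2, leaving out the eIF2 kinases (EIF2AK). The rule found 64 entries with 61 distinct symbols among 64253 genes, of which 21983 are protein coding. Expression was measured by sequencing of polyadenylated RNA in 9 libraries that the labels describe as EPC2, a cell line from normal human esophageal squamous epithelium. Cells transfected with a plasmid carrying FOXF1 (a forkhead transcription factor), cells transfected with the empty vector, and untreated cells gave 3 libraries each. Both transfected groups received Lipofectamine 2000, a cationic lipid used to deliver plasmids, so the untreated cells lack reagent and DNA alike. FOXF1 in the plasmid libraries was given from outside, in 1 cell line, and neither the promoter of the plasmid nor the time from transfection to harvest is given in the sources used here.

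Initiation starts when eIF2, loaded with GTP and the initiator tRNA, joins the small ribosomal subunit together with eIF1, eIF1A, eIF3 and eIF5. The eIF4 factors recognise the mRNA cap and unwind the leader, and the complex scans to a start codon, where eIF5 triggers GTP hydrolysis and eIF5B joins the large subunit. eIF2B recharges eIF2 with GTP, and phosphorylation of the eIF2 alpha subunit blocks this step, which lowers most protein synthesis and raises translation of ATF4 in the integrated stress response. During elongation eEF1A delivers aminoacyl-tRNAs and eEF2 moves the ribosome by a codon, and the mRNAs of many of these factors carry a pyrimidine tract at their 5′ end through which mTORC1 and LARP1 regulate their translation.

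Library totals ranged from 34390666 to 39973289 counts, and the factor genes together took 1.73 ± 0.05% of all counts with the FOXF1 plasmid, 1.83 ± 0.02% with the empty vector and 1.52 ± 0.08% in untreated cells (SD, n = 3 each). Mitochondrially encoded genes took 14.1 ± 0.52% of counts with the FOXF1 plasmid, 11.2 ± 0.76% with the empty vector and 20.9 ± 2.0% in untreated cells. FOXF1 itself had 367, 184 and 141 reads with the plasmid, 0, 0 and 6 reads with the empty vector, and 1, 0 and 0 reads in untreated cells. The labelled cell type was not borne out by its markers: TP63 and SOX2, which define squamous basal cells, had 0 reads in every library, and KRT5 had 8 to 19 reads. Keratins of simple epithelium were abundant instead (KRT8 at 1267 to 1505 CPM), but the epithelial markers EPCAM (4.18 to 5.08 CPM) and CDH1 (7.85 to 11.4 CPM) were far lower. Of 8 fibroblast or mesenchyme markers VIM (703 to 889 CPM), COL1A1 (1079 to 1738 CPM) and PDGFRB (35.2 to 56.7 CPM) were well detected. The other 5 of that list were not: COL1A2 and LUM had 0 reads in every library, COL3A1 and DCN 0 to 6 and PDGFRA 0 to 2. The leukocyte gene PTPRC had 0 reads. The cells are therefore called by their label only.

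Annotated start sites of the factor genes were searched for the pyrimidine tract described above, and the 5′ ends of the mRNAs were not measured here. RefSeq promoters (GRCh38.p14) were at hand for 50 of the 61 symbols. A tract, defined as a C at the annotated start followed on the gene's strand by at least 4 bases that are each C or T, was found at a listed start of 12 of these 50 symbols (24.0%), against 5.14% of all 27305 symbols in the table and 7.17% of the 10393 of them that were tested for expression. The 12 are shown with 10 bases before the start and 20 from it on, 5′ to 3′ on the gene's strand, with the tract in capitals.
EEF1A1 (chr6:73521013-73521042, minus strand): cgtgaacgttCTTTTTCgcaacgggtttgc
EEF1B2 (chr2:206159885-206159914, plus strand): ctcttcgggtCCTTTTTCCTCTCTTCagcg
EEF2 (chr19:3985444-3985473, minus strand): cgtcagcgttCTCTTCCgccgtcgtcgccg
EIF2A (chr3:150546777-150546806, plus strand): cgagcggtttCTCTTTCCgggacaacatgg
EIF2D (chr1:206612446-206612475, minus strand): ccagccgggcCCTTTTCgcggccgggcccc
EIF2S3 (chrX:24054946-24054975, plus strand): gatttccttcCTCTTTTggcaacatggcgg
EIF3D (chr22:36529147-36529176, minus strand): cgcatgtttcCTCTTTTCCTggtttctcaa
EIF3F (chr11:7987327-7987356, plus strand): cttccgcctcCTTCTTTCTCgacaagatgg
EIF3K (chr19:38619178-38619207, plus strand): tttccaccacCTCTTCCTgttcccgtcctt
EIF3M (chr11:32583821-32583850, plus strand): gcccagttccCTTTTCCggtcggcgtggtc
EIF4A2 (chr3:186783567-186783596, plus strand): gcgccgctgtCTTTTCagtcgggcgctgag
EIF4B (chr12:53006446-53006475, plus strand): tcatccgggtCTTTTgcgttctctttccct
The tracts ran from 5 bases in EIF4B to 16 in EEF1B2, whose other listed start has none. For contrast, the same windows follow for factor genes without a tract and with a single listed start that changed between empty vector and untreated cells, first EEF2K, EIF2B5 and EIF4H, which rose, and then EIF2B2, EIF2S1, EIF3I and EIF4A3, which fell.
EEF2K (chr16:22206268-22206297, plus strand): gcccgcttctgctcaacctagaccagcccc
EIF2B5 (chr3:184135348-184135377, plus strand): cagcttccttgcggaagtggtgaccgtgag
EIF4H (chr7:74174346-74174375, plus strand): ctcgctcaccctggttcctctcggagcgga
EIF2B2 (chr14:75002911-75002940, plus strand): cgcccgccccggaagtgcaaactgtgtggt
EIF2S1 (chr14:67360318-67360347, plus strand): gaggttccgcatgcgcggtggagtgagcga
EIF3I (chr1:32222397-32222426, plus strand): ttccggtcttactcacgttgcggccttcct
EIF4A3 (chr17:80147109-80147138, minus strand): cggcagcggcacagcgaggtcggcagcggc

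Of the 64 entries, 56 had enough counts to be tested among 16366 genes. The 8 others were EEF1G, EEF1E1-BLOC1S5, EIF2S3L, EIF4E1B, EIF4EBP3 and 3 duplicate entries, of EEF1D and of EIF1AY. EIF1AY, a Y-linked copy of EIF1AX, enters the counts but its levels are not given. EEF1G, the gamma subunit of the exchange factor for eEF1A, had 0 reads in every library, and 99.9% of its exon length at chr11:62559601-62574086, minus strand (GRCh38, GENCODE 29) is shared on the same strand with AP002990.1. EIF4A1, the main helicase of initiation, had 200 to 296 reads, and 48.6% of its exon length is shared with SENP3-EIF4A1 and small nucleolar RNAs. Levels of both are therefore uncertain, as are those of genes with near-identical copies (EIF3C with EIF3CL, EIF5A with EIF5AL1, EEF1A1 and its pseudogenes).

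Per kilobase of exon, the factor genes spanned more than 3 orders of magnitude. EEF2, which translocates the ribosome, reached 1346 ± 37.0 CPM per kb with the FOXF1 plasmid, 1355 ± 50.3 CPM per kb with the empty vector and 1250 ± 45.0 CPM per kb in untreated cells (SD, n = 3 each). In untreated cells EIF5A followed at 348 ± 21.6 CPM per kb and EEF1A1 at 314 ± 47.1 CPM per kb, 2 levels that did not differ beyond their spread. EEF1A2, an eEF1A paralog best known from muscle and neurons, stood at 249.9 ± 8.51 CPM per kb. EIF4E, the cap-binding protein, was among the lowest at 0.477 ± 0.0482 CPM per kb, while EIF4EBP1, its repressor, stood at 142 ± 13.0 CPM per kb. Much of this contrast lies in the divisor, a merged exon length of 14067 bases for EIF4E and 1073 for EIF4EBP1. In reads, EIF4EBP1 had 22.2 to 22.9 times the count of EIF4E in the untreated libraries. The subunits of eIF3 ranged from 3.06 CPM per kb (EIF3M) to 186 CPM per kb (EIF3I) in untreated cells. This leaves out EIF3CL, the near-identical copy of EIF3C with an uncertain level, at 1.60 CPM per kb.

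**Figure D1:**
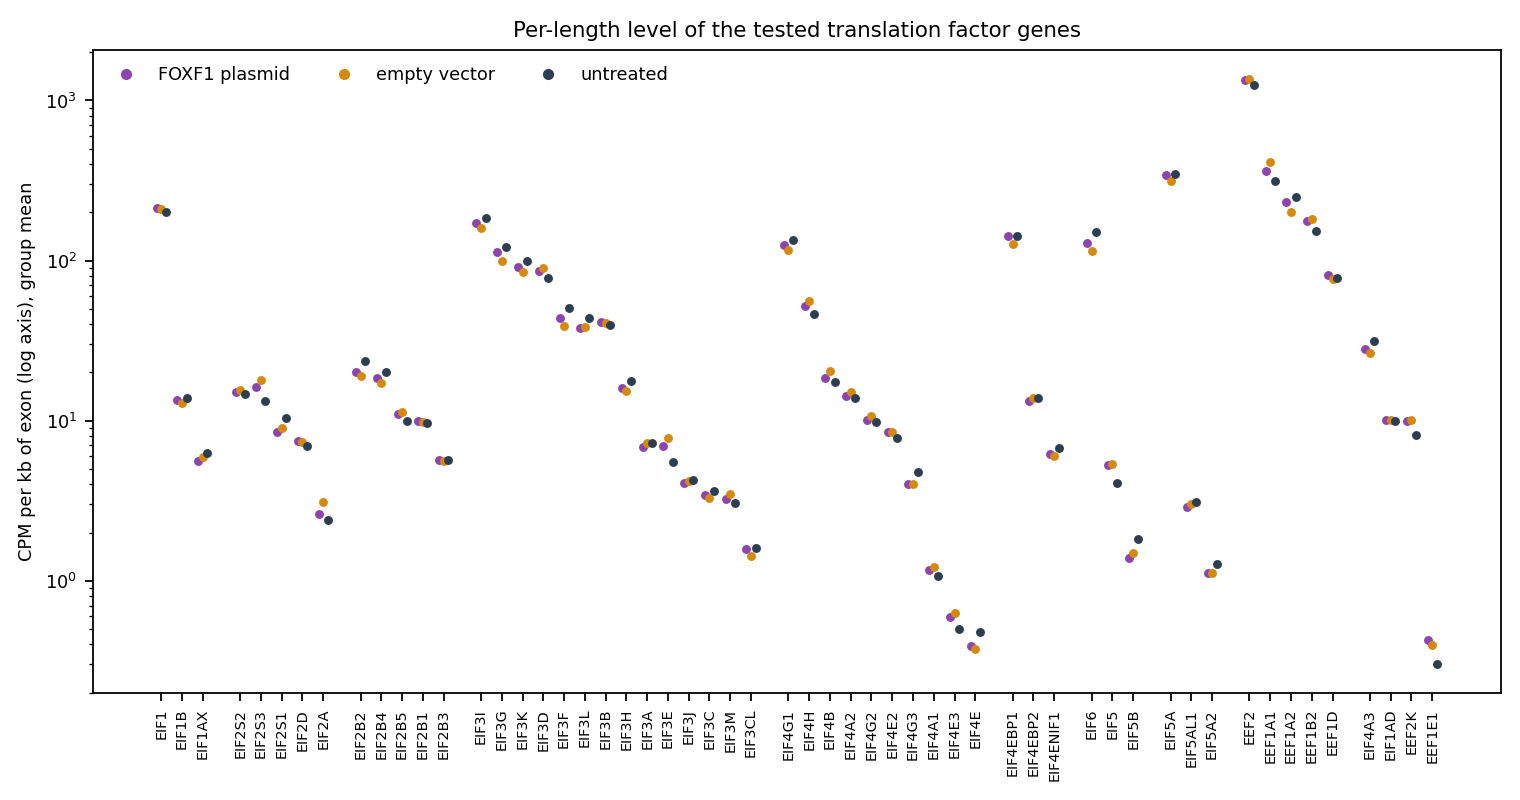
Group means (n = 3 libraries each) of CPM per kb of exon on a log axis for 55 tested translation factor genes, grouped by role and sorted by their level in untreated cells. EEF2 stands highest in all 3 groups and EIF4E, EIF4E3 and EEF1E1 lowest, and the 3 groups lie close together for each gene.

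Between FOXF1 plasmid and empty vector, no factor gene passed the test. With edgeR's quasi-likelihood test and Benjamini-Hochberg adjustment, 0 of 56 passed the threshold of 0.05, where 0.055% of all 16366 genes did (9 genes, all higher). That background depended on the setting: over all genes, 326 were called without empty vector replicate 1 (1.95%, 154 higher and 172 lower), 92 with DESeq2 (90 higher and 2 lower) and 96 without the low-count filter (56 higher and 40 lower), and 1 without FOXF1 plasmid replicate 2 or 2 without empty vector replicate 2. Without empty vector replicate 1, 0 factor genes were called. DESeq2 called 1 factor gene (EEF1A2, higher) and limma-voom called 0. At an unadjusted p below 0.05 edgeR had 5 of the 56 factor genes higher and 1 lower, beside 9.43% of all genes in either direction. Log2 fold changes ran from -0.25 for EIF2A to 0.21 for EEF1A2, with a median of -0.01 beside -0.01 over all genes. For 53 of the 56 genes the 95% interval lay within 0.5 of zero on the log2 scale. In 6 genes all plasmid libraries stood above all empty-vector libraries and in 1 all stood below, that is 10.7% and 1.79%, against 7.33% and 5.68% of all genes.

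The empty vector, by contrast, differed from untreated cells in 24 of the 56 genes, 42.9%, where 19.6% of all genes were called. Of these, 11 were higher (19.6%, against 10.2% of all genes) and 13 lower (23.2%, against 9.37%), so calls went in both directions, with a median log2 fold change of -0.01 beside 0.04 over all genes. The share over all genes depended on the count filter. It was 24.9% of 13310 genes at 1 CPM in 3 libraries, where all 24 factor genes were still called, and 11.1% of 28753 genes without the filter. A background matched to the factor genes in level was not tested. In bulk RNA, fewer cells of a type and less RNA per cell cannot be told apart. The largest rises were those of EIF3E, EIF2S3, EEF1A1 and EIF5, and the largest falls those of EIF6, EIF3F, EEF1A2 and EIF2B2. All fitted changes were smaller than 1.5-fold, from -0.39 to 0.49 on the log2 scale. The groups did not overlap in 12 genes with the empty vector above and 16 below (21.4% and 28.6%, against 17.4% and 15.3% of all genes). The mitochondrial share of counts also differed between these groups, and scaling by library totals alone raised the median of all genes by 0.25. On that scale 27 factor genes were called higher and 0 lower, where 5721 of all 16366 genes were higher and 338 lower. Every one of the 24 kept its side of the all-gene median. This was nearly fixed in advance, since a change of scaling moves all genes of a comparison by almost the same amount. With mitochondrial genes left out of the scaling, 10 of the 11 and all 13 were still called. Leaving out empty vector replicate 2 left 5 lower calls, and leaving out untreated replicate 1 or 3 left 6 or 7 higher calls. Under the 18 alternatives other than library totals, EIF5, EEF2K, EIF3E, EIF4H, EIF2S3 and EEF1A1 remained called higher and EEF1A2, EIF2B2, EIF3F and EIF6 lower throughout.

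Compared with untreated cells, the FOXF1 plasmid libraries had 4 factor genes higher (7.14%, against 4.63% of all genes) and 3 lower (5.36%, against 3.89%), 12.5% in all beside 8.52% of all genes. Those called higher were EIF5, EIF3E, EIF2S3 and EEF2K, and those lower EIF2S1, EIF6 and EIF2B2. This comparison and that of the empty vector share the untreated libraries. None of the 7 calls held in every leave-one-out fit, though each kept its direction there. EIF5 lost its call without FOXF1 plasmid replicate 1 (edgeR adjusted p up to 0.0789). EEF2K lost its call without untreated replicate 1 (edgeR adjusted p up to 0.0504). EIF2S3 lost its call without FOXF1 plasmid replicate 1 or without untreated replicate 1 or 2 (edgeR adjusted p up to 0.184), and EIF3E lost its call without FOXF1 plasmid replicate 1 or 3 or without empty vector replicate 2 or without untreated replicate 1 or 2 (edgeR adjusted p up to 0.31), and also under DESeq2, limma-voom, with a log2 fold change of 0.21 without FOXF1 plasmid replicate 3 or untreated replicate 1. EIF2S1 lost its call without FOXF1 plasmid replicate 1 or 2 or without untreated replicate 2 (edgeR adjusted p up to 0.14). EIF2B2 lost its call without FOXF1 plasmid replicate 1, 2 or 3 or without untreated replicate 1 or 2 (edgeR adjusted p up to 0.155), and EIF6 lost its call without FOXF1 plasmid replicate 1, 2 or 3 or without untreated replicate 1 or 2 (edgeR adjusted p up to 0.216). Lower calls numbered 0 without FOXF1 plasmid replicate 2 or untreated replicate 2, and higher calls 1 without untreated replicate 1. Without FOXF1 plasmid replicate 1 there were 2 higher and 1 lower. Without untreated replicate 3 the fit called 7 factor genes lower in place of 3, and without empty vector replicate 1, which only adds to the estimate of the spread, it also called 7.

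**Figure D2:**
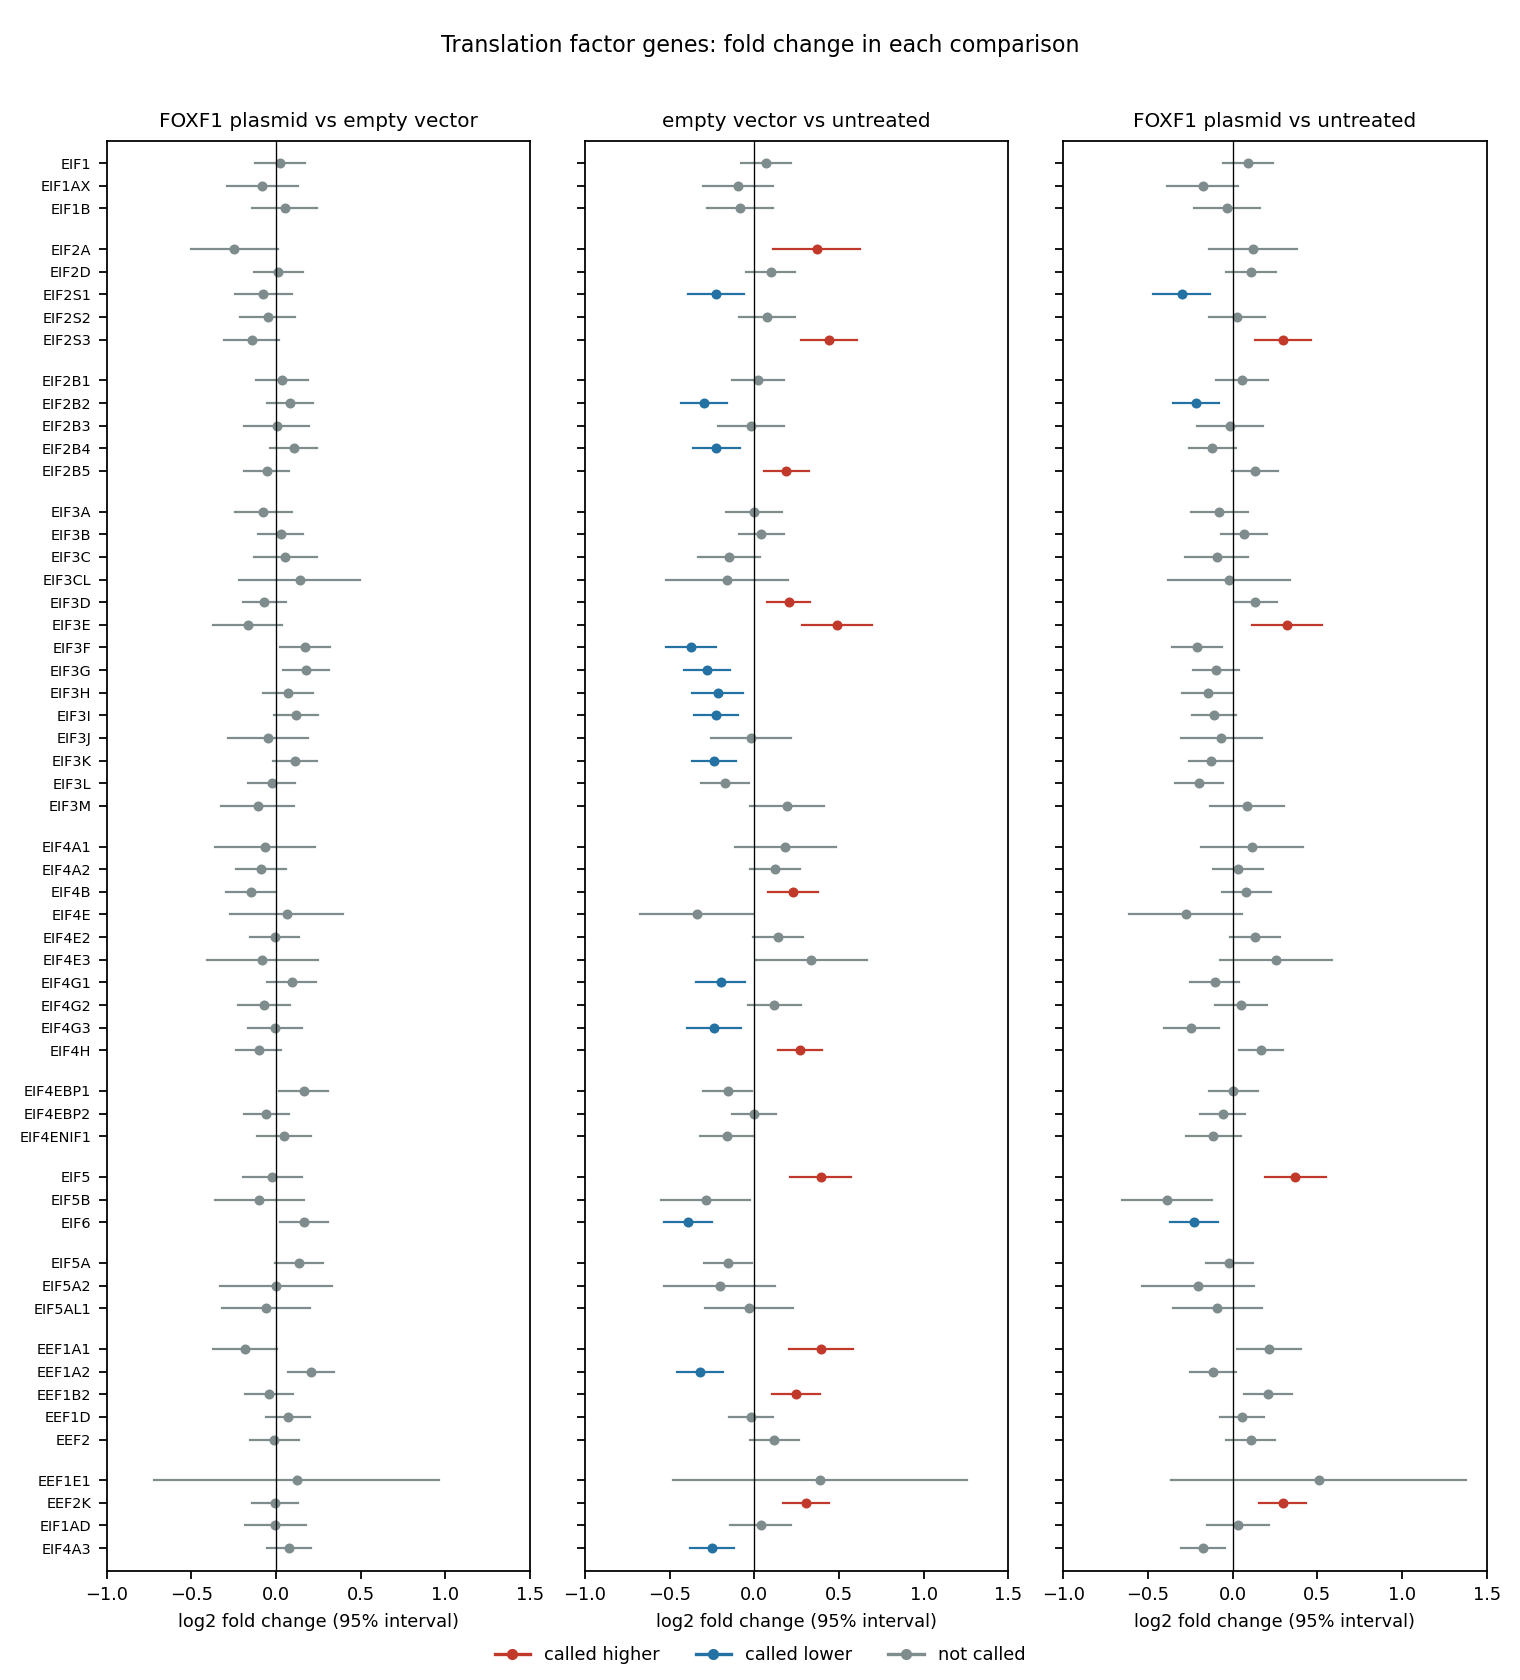
Log2 fold changes with 95% intervals of 55 translation factor genes in the 3 comparisons, grouped by role as in the text (start codon selection, eIF2, eIF2B, eIF3, eIF4, eIF4E-binding, eIF5 to eIF6, eIF5A, elongation, others), coloured by the edgeR call. The panel of FOXF1 plasmid against empty vector holds no called gene, and that of empty vector against untreated holds 11 higher and 13 lower.

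Among the factors that select the start codon, none of the 3 whose levels are given was called. EIF1, which keeps the scanning ribosome open, had 688, 831 and 809 CPM with the FOXF1 plasmid and 805, 708 and 779 CPM with the empty vector. Untreated libraries had 714, 734 and 735 CPM. EIF1AX, the partner that also promotes scanning, had 25.1, 23.3 and 25.7 CPM with the FOXF1 plasmid and 21.3, 26.6 and 30.3 CPM with the empty vector. Untreated libraries had 25.2, 30.0 and 28.6 CPM. The groups overlapped in both genes, and EIF1B, a paralog of EIF1, had a log2 fold change of -0.09 (95% interval -0.28 to 0.11) for empty vector over untreated.

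Of the 3 subunits of eIF2, 1 rose, 1 fell and 1 did not pass the test with the empty vector over untreated cells. EIF2S3, the gamma subunit that binds GTP and the initiator tRNA (chrX:24054716-24077971, plus strand), had 59.3, 54.1 and 55.6 CPM with the FOXF1 plasmid and 58.3, 64.8 and 63.6 CPM with the empty vector. Untreated libraries had 40.3, 45.5 and 51.7 CPM. Every transfected library stood above every untreated one, with log2 fold changes of 0.44 ± 0.08 (SE, edgeR adjusted p = 0.000158) for the empty vector and 0.30 ± 0.08 (SE, edgeR adjusted p = 0.0161) for the FOXF1 plasmid over untreated cells. EIF2S1, the alpha subunit that stress kinases phosphorylate, had 47.4, 45.9 and 50.6 CPM with the FOXF1 plasmid and 44.5, 51.9 and 55.1 CPM with the empty vector. Untreated libraries had 56.7, 65.7 and 54.9 CPM. It was lower in both transfected groups, with a log2 fold change of -0.23 ± 0.08 (SE, edgeR adjusted p = 0.0493) with the empty vector, where 1 library overlapped the untreated range, and of -0.30 ± 0.08 (SE, edgeR adjusted p = 0.0176) with the FOXF1 plasmid, where none did. For the empty vector, EIF2S1 lost its call without FOXF1 plasmid replicate 1 or 3 or without empty vector replicate 1 or 2 or without untreated replicate 2 (edgeR adjusted p up to 0.26), and also under limma-voom, only the 2 compared groups in the fit. Its log2 fold change was -0.14 without empty vector replicate 1. EIF2S2, the beta subunit, had 37.6, 38.1 and 43.7 CPM with the FOXF1 plasmid, 40.1, 42.5 and 40.9 CPM with the empty vector, and 40.3, 41.5 and 35.5 CPM in untreated cells, and the 3 groups overlapped. EIF2A, a separate protein that can bring initiator tRNA to the ribosome, had 11.3, 9.62 and 11.5 CPM with the FOXF1 plasmid and 11.5, 13.5 and 13.4 CPM with the empty vector. Untreated libraries had 8.56, 10.9 and 10.4 CPM. It was higher with the empty vector than in untreated cells (log2 fold change 0.37 ± 0.13 SE, edgeR adjusted p = 0.0371), and between FOXF1 plasmid and empty vector its log2 fold change was -0.25 (95% interval -0.50 to 0.01). EIF2A lost its call without empty vector replicate 2 or 3 or without untreated replicate 1 or 3 (edgeR adjusted p up to 0.23), and also under RLE scaling, GC and length offsets.

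Of the 5 subunits of eIF2B, 1 rose and 2 fell with the empty vector, where 10.2% of all genes rose and 9.37% fell. EIF2B5, the catalytic epsilon subunit, had 74.3, 80.5 and 81.1 CPM with the FOXF1 plasmid and 84.5, 81.0 and 79.4 CPM with the empty vector. Untreated libraries had 73.3, 68.2 and 73.5 CPM. The empty-vector libraries were all above the untreated ones (log2 fold change 0.19 ± 0.07 SE, edgeR adjusted p = 0.0411), but EIF2B5 lost its call without FOXF1 plasmid replicate 2 or without empty vector replicate 1, 2 or 3 or without untreated replicate 1, 2 or 3 (edgeR adjusted p up to 0.216), and also under RLE scaling, mitochondrial genes left out of the scaling, DESeq2, no filter on low counts. EIF2B2, the beta subunit, had 107, 112 and 112 CPM with the FOXF1 plasmid and 111, 97.9 and 103 CPM with the empty vector. Untreated libraries had 135, 128 and 121 CPM. Every transfected library was below every untreated library, with a log2 fold change of -0.30 ± 0.07 (SE, edgeR adjusted p = 0.00139) for the empty vector and -0.21 ± 0.07 (SE, edgeR adjusted p = 0.0386) for the FOXF1 plasmid over untreated cells. EIF2B4, the delta subunit, had 98.6, 97.6 and 99.8 CPM with the FOXF1 plasmid and 97.4, 90.5 and 87.7 CPM with the empty vector. Untreated libraries had 115, 109.5 and 97.7 CPM. Its empty-vector libraries were all below those of both other groups, with -0.22 ± 0.07 (SE, edgeR adjusted p = 0.018) over untreated cells and 0.10 (95% interval -0.04 to 0.24) for FOXF1 plasmid over empty vector. EIF2B4 lost its call without empty vector replicate 2 or 3 or without untreated replicate 1 or 2 (edgeR adjusted p up to 0.105), and also under GC and length offsets. EIF2B1 (alpha) and EIF2B3 (gamma) overlapped between groups, at 33.6, 36.6 and 36.1 CPM and 19.98, 18.4 and 19.3 CPM with the empty vector, against 34.3, 35.2 and 35.3 CPM and 18.2, 20.9 and 19.3 CPM in untreated cells.

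The eIF3 complex, the scaffold on the small subunit, had 2 of 14 genes higher and 5 lower with the empty vector than in untreated cells, against 10.2% and 9.37% of all genes. Their median log2 fold change was -0.16 beside 0.04 over all genes, and 0 of 14 were called between FOXF1 plasmid and empty vector. EIF3E, a subunit with a PCI domain, had 40.2, 37.0 and 47.7 CPM with the FOXF1 plasmid and 39.6, 49.0 and 51.7 CPM with the empty vector. Untreated libraries had 28.5, 35.9 and 35.6 CPM. All transfected libraries exceeded all untreated ones, and the log2 fold change was 0.49 ± 0.10 (SE, edgeR adjusted p = 0.000691) with the empty vector and 0.32 ± 0.10 (SE, edgeR adjusted p = 0.0436) with the FOXF1 plasmid over untreated cells. EIF3D, a subunit that can bind the cap of some mRNAs, had 335, 353 and 358 CPM with the FOXF1 plasmid and 387, 359 and 351 CPM with the empty vector. Untreated libraries had 318, 318 and 316 CPM. It was higher with the empty vector (log2 fold change 0.20 ± 0.06 SE, edgeR adjusted p = 0.0189), and EIF3D lost its call without empty vector replicate 1 or without untreated replicate 1, 2 or 3 (edgeR adjusted p up to 0.0763), and also under RLE scaling. EIF3F, a subunit with an MPN domain (chr11:7970251-8001862, plus strand), had 386, 441 and 419 CPM with the FOXF1 plasmid and 381, 326 and 401 CPM with the empty vector. Untreated libraries had 492, 489 and 459 CPM. The empty-vector libraries were all below the untreated ones (log2 fold change -0.38 ± 0.07 SE, edgeR adjusted p = 0.000325). For the FOXF1 plasmid, its log2 fold change was -0.21 over untreated cells and 0.17 (95% interval 0.02 to 0.32) over the empty vector, both uncalled.

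EIF3H, the other MPN subunit, had 99.5, 96.9 and 112 CPM with the FOXF1 plasmid, 96.0, 98.4 and 99.7 CPM with the empty vector, and 108, 128 and 106 CPM in untreated cells, and was lower with the empty vector than in untreated cells (log2 fold change -0.22 ± 0.07 SE, edgeR adjusted p = 0.0334). EIF3H lost its call without empty vector replicate 1, 2 or 3 or without untreated replicate 2 (edgeR adjusted p up to 0.255), and its log2 fold change was -0.14 without untreated replicate 2. EIF3G and EIF3I belong to a module at the mRNA entry side of the complex. EIF3G had 384, 397 and 399.7 CPM with the FOXF1 plasmid and 374, 336 and 333 CPM with the empty vector. Untreated libraries had 455, 413 and 398 CPM. Its empty-vector libraries were below those of both other groups, with a log2 fold change of -0.28 ± 0.07 (SE, edgeR adjusted p = 0.00283) over untreated cells and 0.18 ± 0.07 (SE, edgeR adjusted p = 0.393) for FOXF1 plasmid over empty vector. EIF3G lost its call under GC and length offsets. EIF3I had 277, 307 and 307 CPM with the FOXF1 plasmid, 285, 264 and 273 CPM with the empty vector, and 314, 329.8 and 317 CPM in untreated cells, which gave -0.23 ± 0.06 (SE, edgeR adjusted p = 0.0107) for empty vector over untreated. EIF3I lost its call without empty vector replicate 2 (edgeR adjusted p up to 0.0673). EIF3K, a peripheral subunit, had 244, 255 and 267 CPM with the FOXF1 plasmid and 249.6, 223 and 235 CPM with the empty vector. Untreated libraries had 279, 275 and 281 CPM. Empty-vector libraries were below untreated ones here too (log2 fold change -0.24 ± 0.06 SE, edgeR adjusted p = 0.00659), and EIF3K lost its call without empty vector replicate 2 (edgeR adjusted p up to 0.0605). The largest subunit, EIF3A, had 52.0, 47.8 and 46.4 CPM with the FOXF1 plasmid, 46.6, 58.0 and 49.3 CPM with the empty vector, and 49.3, 55.8 and 49.3 CPM in untreated cells, with overlap between all groups. EIF3C had 23.1, 22.9 and 23.1 CPM with the empty vector against 27.4, 25.8 and 23.4 CPM in untreated cells and was not called, like EIF3B, EIF3CL, EIF3J, EIF3L and EIF3M.

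Of 10 tested cap-binding and helicase genes, 2 rose and 2 fell with the empty vector, against 10.2% and 9.37% of all genes, with a median log2 fold change of 0.13 beside 0.04 over all genes. EIF4H and EIF4B, RNA-binding cofactors of the eIF4A helicase, were those that rose. EIF4H had 161, 160.5 and 174 CPM with the FOXF1 plasmid, 169, 177 and 186 CPM with the empty vector, and 141, 154 and 146 CPM in untreated cells, without overlap between the empty vector and untreated groups (log2 fold change 0.27 ± 0.06 SE, edgeR adjusted p = 0.0026). EIF4B had 116, 106 and 117 CPM with the FOXF1 plasmid, 116, 129 and 130.1 CPM with the empty vector, and 98.0, 118 and 105 CPM in untreated cells, with 1 untreated library inside the range of the empty vector (log2 fold change 0.23 ± 0.07 SE, edgeR adjusted p = 0.0218). EIF4B lost its call without empty vector replicate 2 or 3 or without untreated replicate 1 or 3 (edgeR adjusted p up to 0.191). EIF4G1, the scaffold that joins cap-binding protein, helicase and eIF3, had 1058, 1086 and 937 CPM with the FOXF1 plasmid, 1007, 964 and 918 CPM with the empty vector, and 1190, 1056 and 1070 CPM in untreated cells, with empty-vector libraries all below untreated ones. Its paralog EIF4G3 had 41.2, 39.1 and 35.4 CPM with the FOXF1 plasmid and 39.6, 39.8 and 36.8 CPM with the empty vector. Untreated libraries had 43.5, 49.3 and 44.1 CPM. Both were lower with the empty vector than in untreated cells in every library, with a log2 fold change of -0.20 ± 0.07 (SE, edgeR adjusted p = 0.0471) for EIF4G1 and -0.24 ± 0.08 (SE, edgeR adjusted p = 0.0306) for EIF4G3. EIF4G1 lost its call without FOXF1 plasmid replicate 1 or without empty vector replicate 2 or 3 or without untreated replicate 1 (edgeR adjusted p up to 0.223), and also under only the 2 compared groups in the fit. EIF4G3 lost its call without empty vector replicate 2 or 3 or without untreated replicate 2 (edgeR adjusted p up to 0.158). For FOXF1 plasmid over untreated EIF4G3 had -0.24 (edgeR adjusted p = 0.0504), uncalled, and was called lower in 13 of 19 alternatives.

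EIF4G2, a scaffold that lacks the site for eIF4E, had 91.3, 83.1 and 89.4 CPM with the FOXF1 plasmid and 80.3, 98.2 and 98.6 CPM with the empty vector. Untreated libraries had 80.2, 91.0 and 84.0 CPM. EIF4A2, the second helicase paralog, had 85.9, 82.1 and 93.8 CPM with the FOXF1 plasmid, 88.2, 96.4 and 93.9 CPM with the empty vector, and 76.6, 89.0 and 90.3 CPM in untreated cells, with overlap between groups. EIF4A1, at the low counts described above, had 6.46, 6.18 and 5.92 CPM with the FOXF1 plasmid and 6.79, 6.72 and 5.93 CPM with the empty vector. Untreated libraries had 5.69, 5.68 and 5.76 CPM. Groups overlapped in EIF4G2 too, and EIF4A1 was not called, with 0.18 (95% interval -0.12 to 0.48) for empty vector over untreated. EIF4E had 6.39, 4.33 and 5.84 CPM with the FOXF1 plasmid and 4.89, 5.51 and 5.46 CPM with the empty vector. Untreated libraries had 7.02, 7.17 and 5.93 CPM. Its empty-vector libraries lay below the untreated ones, but the log2 fold change of -0.34 ± 0.16 (SE, edgeR adjusted p = 0.147) did not pass the threshold at 147 to 260 reads per library. EIF4A3, a helicase of the same family that belongs to the exon junction complex, had 136, 144 and 135 CPM with the FOXF1 plasmid and 134, 123 and 137 CPM with the empty vector. Untreated libraries had 155, 155 and 158 CPM. It was lower with the empty vector (log2 fold change -0.25 ± 0.06 SE, edgeR adjusted p = 0.00457), and EIF4A3 lost its call without empty vector replicate 2 (edgeR adjusted p up to 0.0538).

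None of the 3 tested eIF4E-binding genes was called in any comparison. EIF4EBP1, the repressor that mTORC1 phosphorylates, had 150.0, 156 and 152 CPM with the FOXF1 plasmid and 148, 126 and 135 CPM with the empty vector. Untreated libraries had 161, 159 and 136 CPM. All plasmid libraries stood above all empty-vector libraries, with 0.16 ± 0.07 (SE, edgeR adjusted p = 0.483) for FOXF1 plasmid over empty vector. With GC and length offsets in the fit that value was 0.0052. EIF4EBP2 had 99.5, 94.7 and 94.0 CPM with the FOXF1 plasmid, 98.1, 96.5 and 105 CPM with the empty vector, and 96.4, 98.4 and 106 CPM in untreated cells, with overlap throughout, and EIF4ENIF1, which takes eIF4E into the nucleus, had -0.16 (95% interval -0.32 to -0.00025) for empty vector over untreated.

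Of 3 factors of subunit joining, EIF5 rose, EIF6 fell and EIF5B was not called. EIF5, which triggers GTP hydrolysis by eIF2 (chr14:103333544-103345025, plus strand), had 50.3, 44.9 and 39.0 CPM with the FOXF1 plasmid and 40.6, 48.8 and 46.8 CPM with the empty vector. Untreated libraries had 32.9, 35.0 and 36.0 CPM. Every transfected library was above every untreated one, and the log2 fold change over untreated cells was 0.39 ± 0.09 (SE, edgeR adjusted p = 0.00152) with the empty vector and 0.37 ± 0.09 (SE, edgeR adjusted p = 0.00617) with the FOXF1 plasmid. EIF6, which holds free large subunits apart from small ones (chr20:35278911-35284985, minus strand), had 210.1, 211 and 207 CPM with the FOXF1 plasmid and 202, 177 and 183 CPM with the empty vector. Untreated libraries had 269, 245 and 222 CPM. Empty-vector libraries were lowest, plasmid libraries intermediate and untreated libraries highest, without overlap between any 2 groups. The log2 fold change was -0.39 ± 0.07 (SE, edgeR adjusted p = 0.000128) for empty vector over untreated, -0.23 ± 0.07 (SE, edgeR adjusted p = 0.0355) for FOXF1 plasmid over untreated, and 0.16 ± 0.07 (SE, edgeR adjusted p = 0.48) for FOXF1 plasmid over empty vector. EIF5B, the GTPase that joins the subunits, had -0.29 (95% interval -0.55 to -0.03) for empty vector over untreated. For FOXF1 plasmid over untreated EIF5B had -0.39 (edgeR adjusted p = 0.0603), the largest fall among the factor genes given. It was called lower there in 8 of 19 alternatives. EIF5A, which helps the ribosome past difficult peptide bonds, had 924, 1020 and 952 CPM with the FOXF1 plasmid and 897, 831 and 908 CPM with the empty vector. Untreated libraries had 1035, 914 and 987 CPM. Its empty-vector libraries lay below all plasmid libraries, and neither that difference (log2 fold change 0.14 ± 0.07 SE, edgeR adjusted p = 0.543) nor any of EIF5A2 and EIF5AL1 passed the test.

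**Figure D3:**
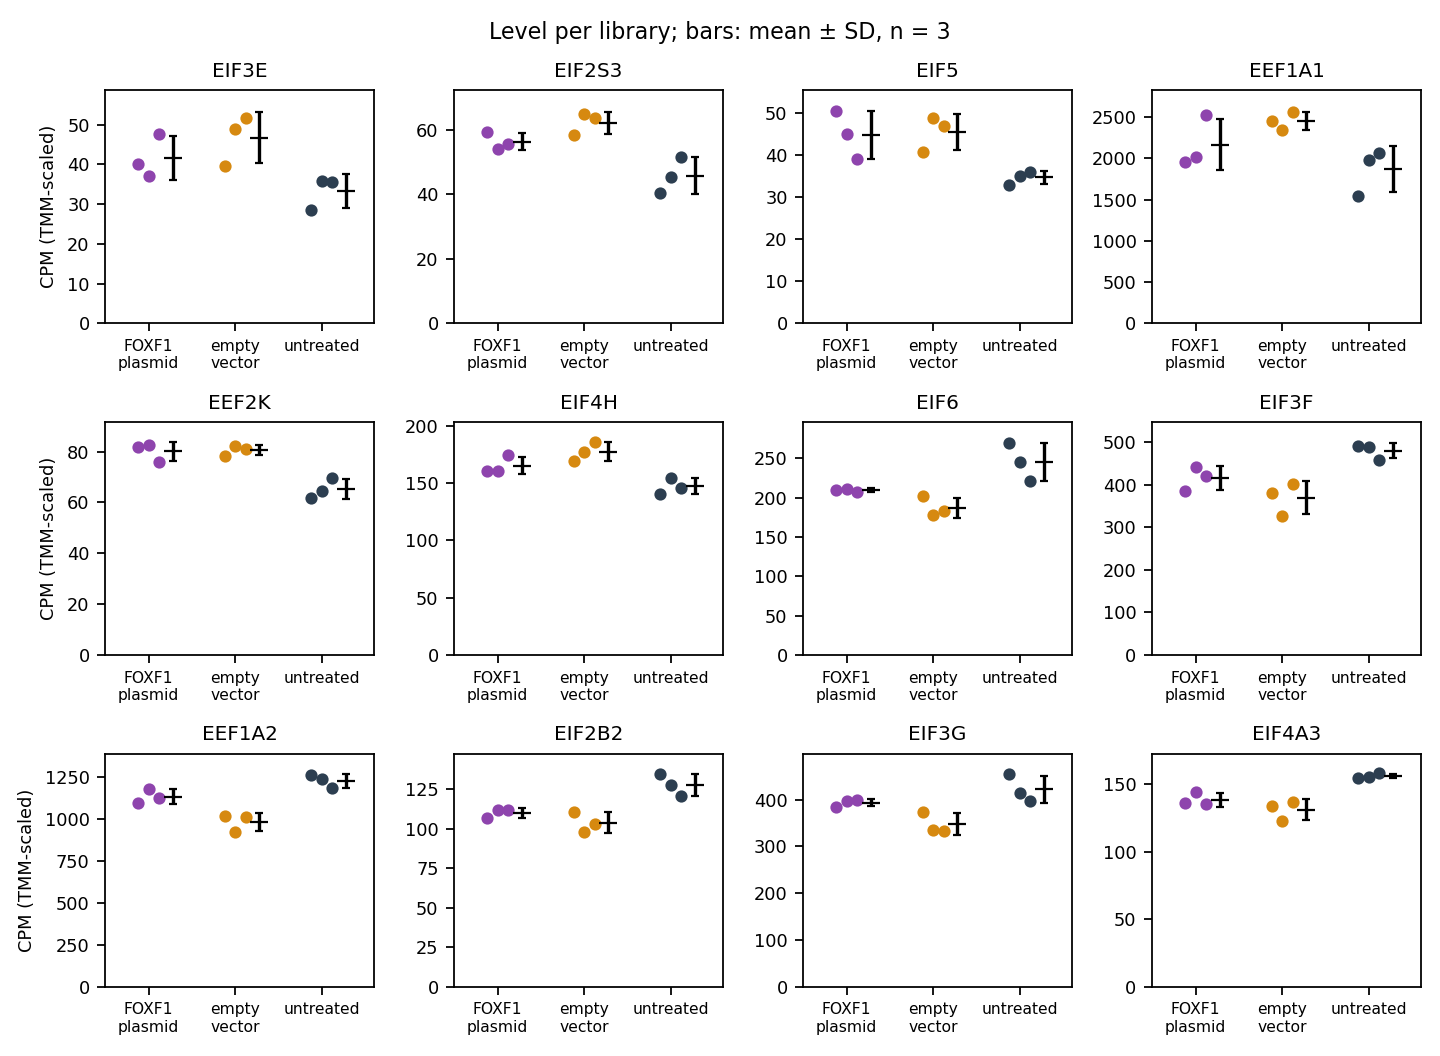
CPM per library for 12 translation factor genes, with points for the 3 libraries of each group and bars for mean ± SD (n = 3), on axes that start at 0. The first 6 genes stand higher and the last 6 lower with the empty vector than in untreated cells, and the FOXF1 plasmid libraries of EIF6 lie between the other groups.

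The elongation factors included both a rise and a fall within 1 pair of paralogs. EEF1A1, the general carrier of aminoacyl-tRNA (chr6:73515750-73523797, minus strand), had 1959, 2011 and 2519 CPM with the FOXF1 plasmid and 2448, 2343 and 2566 CPM with the empty vector. Untreated libraries had 1547, 1983 and 2070 CPM. The empty-vector libraries were all above the untreated ones (log2 fold change 0.39 ± 0.09 SE, edgeR adjusted p = 0.00256). EEF1A2 (chr20:63488012-63499322, minus strand) had 1094, 1180 and 1125 CPM with the FOXF1 plasmid and 1017, 919.7 and 1009 CPM with the empty vector. Untreated libraries had 1264, 1236 and 1181 CPM. It was lower with the empty vector than in untreated cells in every library (log2 fold change -0.32 ± 0.07 SE, edgeR adjusted p = 0.00073), and higher with the FOXF1 plasmid than with the empty vector in every library, at 0.21 ± 0.07 (SE, edgeR adjusted p = 0.316), which did not pass the edgeR threshold. EEF1B2, the subunit that recharges eEF1A with GTP, had 302, 356 and 354 CPM with the FOXF1 plasmid and 355, 328 and 356 CPM with the empty vector. Untreated libraries had 273, 304 and 299 CPM. It was higher with the empty vector than in untreated cells (log2 fold change 0.25 ± 0.07 SE, edgeR adjusted p = 0.0106), and EEF1B2 lost its call without untreated replicate 1 (edgeR adjusted p up to 0.104). EEF1D, another subunit of that exchange factor, had -0.02 (95% interval -0.15 to 0.11) for empty vector over untreated. EEF2 had 5250, 5525 and 5487 CPM with the FOXF1 plasmid and 5671, 5428 and 5269 CPM with the empty vector. Untreated libraries had 4880, 4985 and 5233 CPM. No call was made for it, with a log2 fold change of 0.12 (95% interval -0.03 to 0.26) for empty vector over untreated, although all empty-vector libraries were above the untreated ones. EEF2K, the kinase that inhibits eEF2, had 81.7, 82.7 and 75.9 CPM with the FOXF1 plasmid and 78.4, 82.3 and 80.9 CPM with the empty vector. Untreated libraries had 61.9, 64.3 and 69.5 CPM. Both transfected groups stood above the untreated one in every library, with a log2 fold change of 0.30 ± 0.07 (SE, edgeR adjusted p = 0.00135) for the empty vector and 0.30 ± 0.07 (SE, edgeR adjusted p = 0.00421) for the FOXF1 plasmid.

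Ratios of reads within a library do not depend on scaling, and 8 pairs of factor genes were compared in this way. The share of EEF1A2 among the reads of EEF1A1 and EEF1A2 was 35.8%, 37.0% and 30.9% with the FOXF1 plasmid, 29.3%, 28.2% and 28.2% with the empty vector, and 45.0%, 38.4% and 36.3% in untreated cells. The empty-vector libraries were lowest, without overlap with either other group. The log2 ratio of EEF1A2 to EEF1A1 differed by -0.73 between empty vector and untreated cells and by 0.40 between FOXF1 plasmid and empty vector (two-sided exact permutation p = 0.1 for each, the smallest that 3 against 3 libraries allow, and 0.533 after adjustment over 24 tests). The GC content is 66.4% for EEF1A2 and 46.1% for EEF1A1, and these ratios are not adjusted for it. With GC and length offsets in the fit, log2 fold changes of both genes moved nearer to zero. For FOXF1 plasmid over empty vector they became 0.09 for EEF1A2 and -0.14 for EEF1A1, against 0.21 and -0.18 without offsets. For empty vector over untreated they became -0.21 and 0.33, against -0.32 and 0.39. The ratio of EIF5 to EIF1, 2 factors with opposing effects on start codon choice, was 0.32 higher on the log2 scale with the empty vector than in untreated cells, without overlap (exact permutation p = 0.1, adjusted 0.533), and 0.21 without empty vector replicate 2. No test of this size can pass the threshold, so these ratios are descriptions. EIF4EBP1 stood above EIF4E by 0.30 more on the log2 scale with the FOXF1 plasmid than in untreated cells, again without overlap (exact permutation p = 0.1, adjusted 0.533). That difference was 0.12 without FOXF1 plasmid replicate 2 and 0.43 without FOXF1 plasmid replicate 1. In EIF4A2 to EIF4A1, EIF4G2 to EIF4G1, EIF4EBP2 to EIF4E, EIF5A2 to EIF5A and EIF1B to EIF1 the groups overlapped in every comparison.

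Read against the start sites shown above, the 12 tested genes with a pyrimidine tract included 6 that rose with the empty vector (EEF1A1, EEF1B2, EIF2A, EIF2S3, EIF3D and EIF4B) and 2 that fell (EIF3F and EIF3K). Of 33 tested factor genes with a RefSeq promoter and no tract, 4 rose and 8 fell. The called genes EIF3E, EEF1A2, EIF3G and EIF3H had no promoter at hand and are in neither set. Across all genes, 12.2% of 746 with a tract rose and 16.0% fell, beside 11.6% and 10.3% of 9660 genes without one. Between FOXF1 plasmid and empty vector, 0 of the 12 were called. The search was made with the calls known and is a description. In the same promoters, from 250 bases before to 50 after the start, the palindrome CACGTG, bound by MYC and related factors, occurred in 12 of 50 factor symbols (24.0%) and in 8.77% of all symbols. TGATGNAA on either strand, the core of the element bound by ATF4 with C/EBP proteins, occurred in 1 of 50 (2.0%) and in 4.46% of all. Both shares of all symbols include genes not tested for expression, and a symbol counts if any listed start holds the motif.

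Base composition moved with the fold changes in both comparisons that involve the empty vector. Over 55 factor genes, the Spearman correlation of GC content of the longest coding transcript with the log2 fold change was 0.52 for FOXF1 plasmid over empty vector and -0.23 for empty vector over untreated, beside 0.39 and -0.27 over 16213 genes. For FOXF1 plasmid over untreated it was -0.02, beside -0.04 over all genes. These points share libraries, and the part of base composition in the results was not tested beyond the fit with GC and length offsets. The 11 genes called higher with the empty vector had a median GC content of 46.4%, and the 13 called lower 51.2%. With GC and length offsets in the fit, an alternative added after the data were seen, 10 of the 11 and 11 of the 13 were still called. Among them the log2 fold change for empty vector over untreated was 0.24 for EIF5, -0.21 for EEF1A2, -0.25 for EIF6 and -0.16 for EIF3K, nearer to zero than without the offsets, and -0.42 for EIF2S1 and -0.39 for EIF3H, farther from it. The 3 calls lost were those of EIF3G (-0.11), EIF2B4 (-0.16) and EIF2A (0.20). Calls were also gained. Among the genes given, those called only with the offsets were EIF1AX (-0.35), EIF3L (-0.20), EIF4E (-0.49), EIF5A2 (-0.45) and EIF5B (-0.48), lower, and EEF2 (0.18), higher.

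Between FOXF1 plasmid and empty vector, where no factor gene was called, the offsets moved more of the values. Of the 18 genes with a log2 fold change of at least 0.1 in size, 12 had less than 2/3 of it or the opposite sign with the offsets and 2 had more than 1.5 times it. For FOXF1 plasmid over empty vector the value became 0.09 for EEF1A2, 0.05 for EIF3G, 0.05 for EIF6, 0.03 for EIF5A, 0.03 for EIF2B4 and -0.12 for EIF2A, while EIF3F had 0.32.

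**Figure D4:**
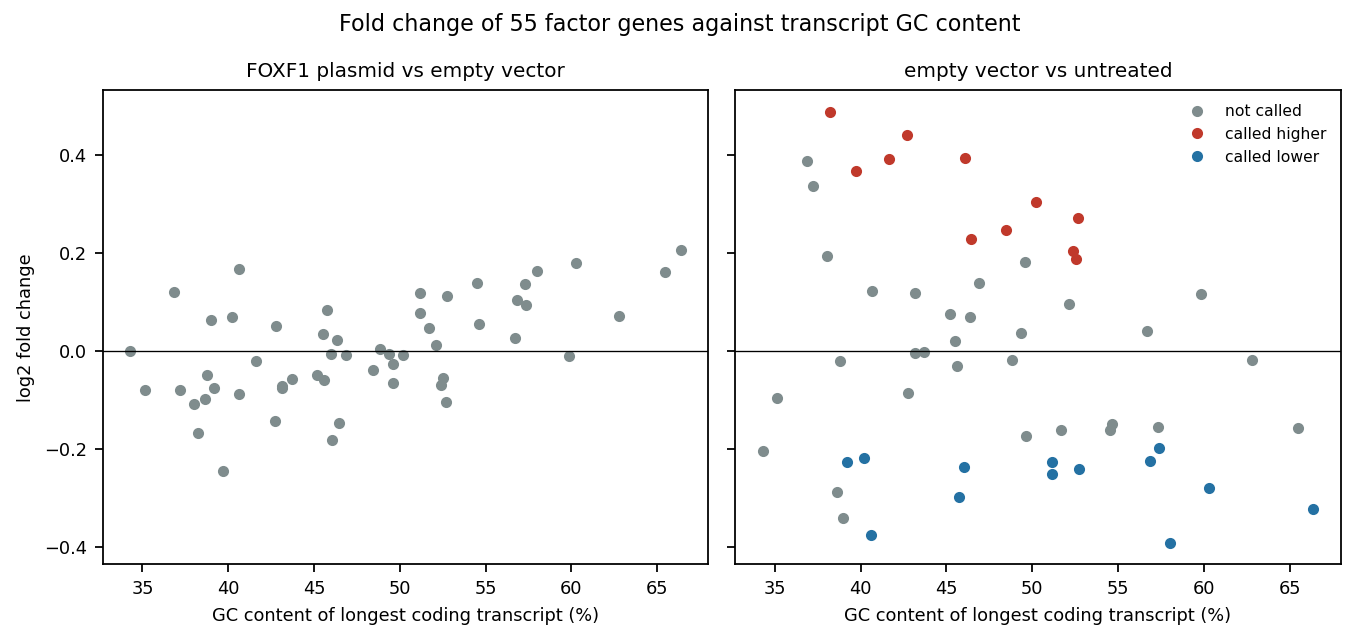
Log2 fold change of 55 translation factor genes against the GC content of the longest coding transcript, for FOXF1 plasmid over empty vector (left) and empty vector over untreated (right), coloured by the edgeR call. GC-rich genes lie higher on the left panel (Spearman 0.52) and slightly lower on the right (-0.23).

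Other genes of the translation pathway give the surroundings of these factors. All 8 listed genes of the integrated stress response and of eIF2 dephosphorylation rose with the empty vector over untreated cells, with a median log2 fold change of 0.71, beside 10.2% of all genes higher and a median of 0.04 over all genes. ATF4, the transcription factor at its centre, had 313 ± 18.9 CPM with the empty vector against 217 ± 10.3 CPM in untreated cells (SD, n = 3 each, log2 fold change 0.53 ± 0.07 SE, edgeR adjusted p = 7.49e-07). PPP1R15A, the phosphatase subunit that restores eIF2, had 45.8 ± 1.58 CPM with the empty vector against 30.6 ± 0.464 CPM in untreated cells (SD, n = 3 each, log2 fold change 0.58 ± 0.07 SE, edgeR adjusted p = 1.06e-06), and DDIT3, a stress transcription factor, had 8.81 ± 0.691 CPM with the empty vector against 4.84 ± 0.377 CPM in untreated cells (SD, n = 3 each, log2 fold change 0.86 ± 0.14 SE, edgeR adjusted p = 5.31e-05). With the FOXF1 plasmid over untreated cells 6 of the 8 rose, beside 4.63% of all genes, and over the empty vector 0 of 8 were called. Of 14 genes around mTORC1 and the MNK kinases, 3 rose and 4 fell with the empty vector, against 10.2% and 9.37% of all genes. DDIT4, which inhibits mTORC1, had 1261 ± 19.7 CPM with the empty vector against 782 ± 49.1 CPM in untreated cells (SD, n = 3 each, log2 fold change 0.69 ± 0.07 SE, edgeR adjusted p = 1.38e-08), while AKT1S1, another inhibitor of mTORC1, had 106 ± 4.23 CPM with the empty vector against 148 ± 16.5 CPM in untreated cells (SD, n = 3 each, log2 fold change -0.49 ± 0.07 SE, edgeR adjusted p = 1.94e-05).

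Of the remaining lists, 1 of 8 termination and recycling genes (GSPT1, a release factor) and 1 of 7 poly(A)-binding genes (PABPC4) fell with the empty vector over untreated cells, beside 9.37% of all genes, and 0 rose in either list. GSPT1 had 104 ± 5.46 CPM with the empty vector against 135 ± 14.4 CPM in untreated cells (SD, n = 3 each, log2 fold change -0.37 ± 0.07 SE, edgeR adjusted p = 0.000344), and PABPC4 had 129 ± 7.58 CPM with the empty vector against 163 ± 8.11 CPM in untreated cells (SD, n = 3 each, log2 fold change -0.34 ± 0.06 SE, edgeR adjusted p = 0.000295). Of 9 mitochondrial translation factors 2 rose (MTIF2 and GFM2) and 0 fell, beside 10.2% and 9.37% of all genes, and of the 2 enzymes that make hypusine on eIF5A 0 were called. Between FOXF1 plasmid and empty vector no gene of these lists was called.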

How the data were processed

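The authors deposited 1 table of raw counts, with a row for each of 64253 Ensembl gene identifiers and a column for each of 9 libraries, per the file headers. The kit selected polyadenylated RNA and kept strand, per the labels' protocols. The submitters' processing notes name bcl2fastq, STAR 2.5.2b, HTSeq and GRCh38. How HTSeq treated strand, and with which annotation release, the sources used here do not give. Reads of antisense or overlapping genes may thus be assigned elsewhere or dropped.

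From these counts, library sizes were scaled by TMM, genes were kept by filterByExpr (minimum count 10), and edgeR 4.0.16 in R 4.3.3 fitted a quasi-likelihood model with 1 mean per group to all 9 libraries. Calls were made at a Benjamini-Hochberg adjusted p below 0.05 over 16366 genes. CPM are edgeR counts scaled by TMM-adjusted library size, and CPM per kb divides them by the merged exon length of GENCODE 29. SE is the absolute log2 fold change over the square root of F. The common biological coefficient of variation was 0.101. A count of 0 allows 0.075 to 0.087 CPM (3 counts), which covers counting error only. Replicates of a group differed by a chi-square of 8.60 to 23.2 per degree of freedom and were all kept. The labels do not say how the cultures were kept apart, and the spread behind each p-value may be technical. Read ratios were compared by exact permutation (scipy 1.17.1). Alternatives were DESeq2 1.42.0, limma-voom 3.58.1, other scalings, filters and group sets, a replicate block, GC and length offsets and each library left out. Start sites came from RefSeq (GRCh38.p14).

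The genes given library by library are a set of core factors and up to 10 called genes with the largest change in each direction, in each comparison. EIF3H was added to them after its values were seen, and other genes are given by fold change or counts. The gene set, the lists and the tests were chosen with earlier results of these data known.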

Additional observations from a re-analysis of the deposited data

How the results depend on the processing

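With library totals alone, the all-gene median moved by -0.10 for FOXF1 plasmid over empty vector, 0.25 for empty vector over untreated and 0.15 for FOXF1 plasmid over untreated, and the factor-gene medians became -0.11, 0.23 and 0.13. Factor genes called higher then numbered 27 for the empty vector and 15 for the FOXF1 plasmid over untreated cells, with 0 lower in both. Of all 16366 genes, 5721 were then higher and 338 lower for the empty vector, and 2320 higher and 180 lower for the FOXF1 plasmid. For empty vector over untreated, 22 of the 55 log2 fold changes given turned positive on that scale, 12 of them called in neither fit. The other 10 were EIF4G3 0.0095, EIF3I 0.018, EEF1D 0.23, EIF3A 0.25, EIF4G1 0.048, EIF2B4 0.024, EIF2S1 0.022, EIF3H 0.029, EIF4EBP2 0.24 and EIF3K 0.0038. All 22 stayed below the all-gene median of 0.29 on that scale, which a nearly equal shift of all genes fixes in advance. DESeq2 called 1 factor gene higher between FOXF1 plasmid and empty vector, where edgeR called 0. For FOXF1 plasmid over untreated cells the 3 lower calls became 5 under RLE scaling or with mitochondrial genes left out, 7 without the low-count filter, with only the compared groups or with GC and length offsets, and 8 with DESeq2.

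Leaving out 1 library at a time gave 6 to 11 higher and 5 to 15 lower calls for empty vector over untreated, 1 to 5 higher and 0 to 7 lower for FOXF1 plasmid over untreated, and 0 higher and 0 lower for FOXF1 plasmid over empty vector. Replicate numbers did not pair the libraries: same-numbered libraries correlated at -0.09 to 0.08, and 2 of 9 correlated best with their own number. With the replicate block, 11 higher and 13 lower calls were made for empty vector over untreated, 24 of 24 shared with the fit without it. The block gave 5 higher and 4 lower calls for FOXF1 plasmid over untreated and 0 for FOXF1 plasmid over empty vector. Over all genes, calls for FOXF1 plasmid against empty vector ranged from 1 (without FOXF1 plasmid replicate 2) to 326 (without empty vector replicate 1) beside 9. For empty vector over untreated they ranged from 2092 to 6059 beside 3209, and for FOXF1 plasmid over untreated from 817 to 2500 beside 1394. Precision was limited for EEF1E1 (9 to 47 reads a library) and for EIF4A1, EIF4E, EIF4E3, EIF3CL and EIF5A2, all under 320 reads.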
